A study of Mus musculus with 12 samples.

Results

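The potassium and voltage-gated sodium channel genes described here were chosen by name. Every line of the 12 expression tables whose gene symbol begins with Kcn and a letter, or with Scn and a digit, was taken. Kcnj10, the glial inward rectifier, was left out by the rule, and so would be antisense or opposite-strand transcripts, of which the pattern matched 0. This gave 109 lines for 108 gene identifiers and 107 symbols, out of 39174 identifiers in the tables. Of the 108, 55 reached 1 FPKM (fragments per kilobase of transcript, scaled to library size) in at least 3 of the 12 libraries and were tested; the other 53 are accounted for by level only. Kcnb2 stands for 2 identifiers, of which 1 was tested.

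Voltage-gated sodium channels open on depolarization and carry the rising phase of the action potential. Potassium channels end it and set the resting potential and the firing rate: Kv channels open with voltage, calcium- and sodium-activated channels read the ion that has entered, and inward rectifiers and K2P (tandem pore) leak channels hold the membrane at rest. In motoneurons, SK channels shape the afterhyperpolarization, and sodium channels gathered at the axon initial segment set the threshold.

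RNA was sequenced from primary motoneuron cultures of FVB mice, in 4 groups of 3 libraries. All mice carried the human SMN2 transgene. Smn+/+;SMN2 cultures, with intact mouse Smn1, are called control, and Smn-/-;SMN2 cultures, null for Smn1 and a model of spinal muscular atrophy, are called SMA. Cultures of each genotype were grown without or with R-Roscovitine at 0.5 µM. The compound blocks cyclin-dependent kinases and also acts on Cav2 calcium channels. The duration of treatment, the age of the donor animals and whether animals were pooled are not given in the labels used here, nor is it said that replicate libraries were grown separately. The p-values therefore reflect the variation among these 12 libraries, which may be technical.

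Depth, read from the step between low FPKM values, was 23.3 to 28.7 M reads in control and 19.5 to 25.2 M reads in SMA libraries. Smn1 lay between 30.9 and 51.2 FPKM in the 6 control and between 5.04 and 8.58 FPKM in the 6 SMA libraries, with no overlap between the labelled genotypes. The cultures did not show the defining genes of motoneurons: Chat did not exceed 0.0605 FPKM and Slc5a7 0.249 FPKM, Mnx1 was listed at 0 in every library, and 4 of 11 motoneuron markers found were tested. Pan-neuronal markers (11 of 11 tested) were abundant, and so was Acta2, a smooth muscle actin, at 1428 to 2625 FPKM. Markers of more than 1 cell type were thus present in every library. In such bulk samples, fewer cells of a type and less RNA per cell cannot be told apart.

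The channel genes were mostly of low abundance. The 55 tested members had a median level of 3.00 FPKM over all libraries, against 10.5 FPKM for all 14981 tested genes, and 49 of the 55 lay below that middle value. At these levels the deposited interval of 1 value extended a median of 14.7% to each side, and libraries of 1 group varied with a median coefficient of variation of 23%. The members with at least 10 FPKM on average were Scn3b, Kcne1l, Kcnk2, Kcnk1, Kcnip1, Kcnc1 and Scn2a1.

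**Figure D1:**
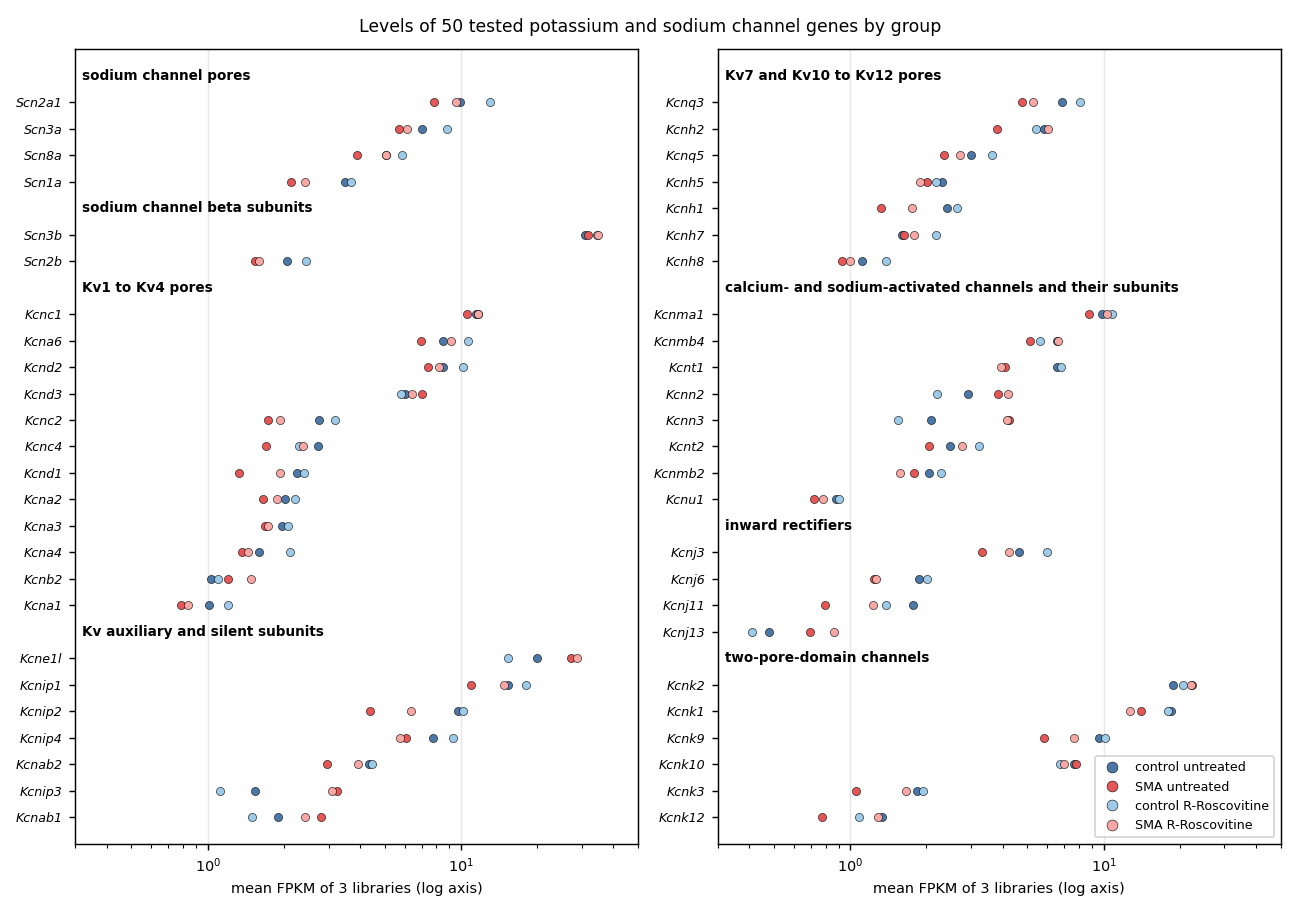
Mean FPKM of 3 libraries (log axis) for 50 tested channel genes in the 4 groups, ordered by role and level. Scn3b is highest at 32.9 FPKM over all libraries and Kcnj13 lowest at 0.612 FPKM. SMA groups (red shades) lie to the right of control groups (blue shades) for Kcnn3 and Kcnip3 and to the left for Kcnq3 and Scn1a.

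Among the pore-forming sodium channels, 5 of 10 were tested. Scn2a1 (Nav1.2), a main channel of developing axons, held 31.8% to 42.4% of the summed pore FPKM of a library, with 10.1 FPKM on average. Scn3a (Nav1.3), the form most typical of the embryo, held 20.8% to 29.2%, and Scn8a (Nav1.6), which takes over at mature initial segments and nodes, held 15.3% to 23%. Scn1a (Nav1.1), known from inhibitory interneurons, held 8.57% to 13.2%. The sensory neuron channels were near the floor: Scn9a (Nav1.7) did not exceed 0.301 FPKM, Scn11a 0.0883 and Scn10a 0.0368 FPKM. Scn4a of skeletal muscle reached 0.0621 FPKM. Scn7a, a sodium sensor of glia, reached 1.24 FPKM in untreated SMA library 1 and stayed under 1 FPKM in the others.

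Of the beta subunits, which anchor and tune the pores, Scn3b was the most abundant member of the whole set, at 30.8 ± 3.65 FPKM in untreated control and 31.7 ± 1.22 FPKM in untreated SMA libraries (SD, n = 3). Scn2b averaged 1.90 FPKM over all libraries, and Scn4b did not exceed 0.176 FPKM. Scn3b thus exceeded every sodium channel pore in level per length in these libraries.

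Of 18 identifiers of Kv1 to Kv4 pores, 14 were tested. Kcnc1 (Kv3.1, of fast-spiking neurons) had 11.3 FPKM on average, Kcna6 (Kv1.6) 8.83 and Kcnd2 (Kv4.2, the A-type current) 8.57 FPKM. Kcnd3 (Kv4.3) had 6.29 FPKM. Under 3 FPKM on average came, among others, Kcnc2, Kcnc4, Kcnd1, Kcna2, Kcna3, Kcna4, Kcnb2 and Kcna1. Kcna1 (Kv1.1) and Kcna2 (Kv1.2), which flank the nodes of myelinated axons, averaged 0.960 and 1.94 FPKM. Untested were Kcna5, Kcna7, Kcna10 and the second Kcnb2 identifier, with at most 1.02 FPKM. Of 23 auxiliary and silent subunits, 7 were tested: Kcne1l (also known as KCNE5, a modulator of Kv channels), the Kv4 partners Kcnip1 to Kcnip4 and the Kv1 partners Kcnab1 and Kcnab2. Kcnip1 averaged 14.8 FPKM. None of the 10 silent subunits of the Kcnf, Kcng, Kcns and Kcnv groups was tested, and Kcnv1 was the highest of them at 1.04 FPKM in 1 library.

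Among the Kv7 and Kv10 to Kv12 pores, 8 of 13 were tested. Kcnq3, a pore of the M-current that restrains repetitive firing, averaged 6.25 FPKM, and Kcnq5 2.92 FPKM. Kcnh2 (ERG1) had 5.27 FPKM, and Kcnh1, Kcnh5, Kcnh7 and Kcnh8 had 1.11 to 2.09 FPKM. Kcnma1, the BK pore, averaged 9.94 FPKM and its neuronal subunit Kcnmb4 5.97 FPKM. Kcnt1 (Slack, sodium-activated) averaged 5.34 FPKM, Kcnt2 2.63 FPKM and the SK channels Kcnn2 and Kcnn3 3.28 and 3.00 FPKM, while Kcnn1 (SK1) did not exceed 0.485 FPKM. Kcnmb2, an inactivating BK subunit, had 1.92 FPKM and Kcnu1 (Slo3, known from sperm) 0.820 FPKM. Inward rectifiers were scarce, with 4 of 14 tested: Kcnj3 (GIRK1) at 4.54 FPKM, its partner Kcnj6 (GIRK2) at 1.60, Kcnj11 (the KATP pore) at 1.29 and Kcnj13 at 0.612 FPKM. Kcnj2, Kcnj9 and Kcnj16 did not exceed 0.536, 0.293 and 0.530 FPKM. Of 14 K2P leak channels, 6 were tested, led by Kcnk2 (TREK-1) at 21 and Kcnk1 (TWIK-1) at 15.8 FPKM. Kcnk9 (TASK-3) had 8.31, Kcnk10 (TREK-2) 7.29 and Kcnk3 (TASK-1) 1.62 FPKM, and Kcnk16 and Kcnk18 were listed at 0 in all 12 libraries.

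Further members under the filter are named here with their highest value in any library. Of the Kv auxiliary and silent subunits, Kcng2, Kcnrg, Kcns1 and Kcnab3 reached 0.905 to 0.963 FPKM, Kcnf1 0.748, Kcns2 0.564 and Kcng1 0.385 FPKM. Kcne1, Kcne2, Kcne3, Kcne4, Kcng3, Kcng4, Kcns3 and Kcnv2 did not exceed 0.256 FPKM. In the Kv7 and Kv10 to Kv12 group, Kcnh6 and Kcnh4 reached 0.954 and 0.940 FPKM, and Kcnh3 and Kcnq1, the cardiac and epithelial Kv7 channel, 0.177 and 0.0793 FPKM. Kcnmb1, the BK subunit of smooth muscle, reached 0.893 FPKM, and Kcnmb3 and Kcnn4 0.131 and 0.124 FPKM. Among inward rectifiers Kcnj12 reached 1.15 FPKM, with 2 libraries at 1 FPKM or more, and Kcnj4 0.701 FPKM. Kcnj14, Kcnj15, Kcnj5, Kcnj1 and Kcnj8 did not exceed 0.364 FPKM. Of the leak channels, Kcnk5, Kcnk4, Kcnk13, Kcnk7, Kcnk6 and Kcnk15 ranged from 0.0570 to 0.653 FPKM at their highest. Of the 53 untested members, 49 stayed under 1 FPKM in every library.

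The first comparison asks how SMA cultures differ from controls. In untreated cultures 41 of the 55 channel genes had a lower estimate in SMA and 14 a higher one, and the median difference was -0.21 on the log2(scaled FPKM + 1) scale, a scale on which the change of low genes is understated. Over all 14981 genes 51% were lower, with a median of -0.01. None of the 55 passed the threshold (limma, Benjamini-Hochberg adjusted p, lowest 0.217), and over all genes 0 were called higher and 1, Smn1, lower, which is 0% and 0.00668%. At an unadjusted limma p under 0.05 stood 12 members, 3 higher and 9 lower, or 21.8%, against 14.1% of all genes. With R-Roscovitine 37 members were lower and 18 higher (47% of all genes were higher), the median was -0.15 (-0.02 over all genes), and again none passed (lowest adjusted p = 0.152 by limma; 0% of all genes were called higher and 0.00668% lower); 12 members, 5 higher and 7 lower, had an unadjusted p under 0.05, against 12.9% of all genes.

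Averaged over both treatments, with 6 libraries per genotype, 42 members were lower and 13 higher (median -0.18, against -0.01 for all genes, of which 51.7% were lower). Kcnn3 and Kcnip3 passed the threshold upward, and none passed downward; over all genes 3.03% were called higher and 1.8% lower. The members' share upward, 2 of 55, was thus near that of all genes. With libraries rescaled to a common sum the calls became 2 higher and 4 lower, the lower ones including Kcnk1, Kcnt1 and Scn1a. The share of all genes called under that scaling is not given here. With 1 mean per pair of treated and untreated libraries, which resembled each other, no member passed and Smn1 alone was called.

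Kcnn3 encodes SK3, a small-conductance calcium-activated channel of the afterhyperpolarization. The gene (ENSMUSG00000000794) spans chromosome 3 from 89520164 to 89667761 on the plus strand of GRCm38. In untreated cultures Kcnn3 stood at 2.38, 1.45 and 2.40 FPKM in control against 3.90, 3.86 and 4.98 FPKM in SMA. In treated cultures it stood at 1.32, 1.58 and 1.75 FPKM against 4.13, 2.83 and 5.47 FPKM. Every SMA library lay above every control library, and the SMA mean was 2.04 times the control mean without and 2.67 times with the compound. The averaged difference was 0.90 ± 0.14 in log2 units (SE; limma, adjusted p = 0.0167). It was 0.81 ± 0.20 without treatment (limma, adjusted p = 0.217) and 0.996 ± 0.20 with it (limma, adjusted p = 0.152). With pair means the averaged adjusted p was 0.163 by limma; over all alternatives it ran from 0.000965 to 0.163, and it stayed under 0.05 in 22 of 29. Leaving out 1 library, the call was lost without treated SMA library 1 (limma, adjusted p = 0.0514) and without untreated SMA library 3 (limma, adjusted p = 0.0613).

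Kcnip3 encodes KChIP3, a calcium sensor that binds Kv4 channels and, under the name DREAM, represses transcription. The gene (ENSMUSG00000079056) spans chromosome 2 from 127456498 to 127522094 on the minus strand. Untreated control libraries held 1.69, 1.26 and 1.64 FPKM and SMA libraries 3.52, 2.44 and 3.73 FPKM. Treated control libraries held 1.15, 0.988 and 1.22 FPKM and treated SMA libraries 3.58, 1.59 and 4.14 FPKM. The genotypes did not overlap within either treatment, but treated SMA library 2 fell below untreated control libraries 1 and 3. The averaged difference was 0.83 ± 0.16 (SE; limma, adjusted p = 0.0219), and it was not called with pair means (limma, adjusted p = 0.176) or with the pairs as a random term (limma, adjusted p = 0.0538). Over 29 alternatives its adjusted p ran from 0.000478 to 0.183 and stayed under the threshold in 16. Leaving out 1 library, the call was lost without control library 2 untreated or 1 treated, SMA library 1 or 3 of either treatment (limma, adjusted p = 0.0536 to 0.0707).

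The promoters of these 2 called genes are shown with that of Scn1a, a gene with a lower estimate in SMA, so that the regulatory stretch in question can be read. Each runs from 250 bases before to 50 after a start site, 5′ to 3′ on the gene's strand, from RefSeq on GRCm38.p6, whose table matched 77 of the 107 symbols. Capitals mark matches to 4 short motifs on either strand. The GC box, a site of Sp1-type factors, was spelled GGGCGG. The E-box, a site of basic helix-loop-helix factors, was spelled CAGCTG. The TATA box, where the general transcription machinery binds, was spelled TATAAA. The CCAAT box, a site of NF-Y, was searched by its own letters and was added after these sequences had been read. For Kcnip3 the first and the last of its 3 listed start sites are given, at chr2:127522045-127522344 and chr2:127482450-127482749; Kcnn3 is at chr3:89519914-89520213 and Scn1a at chr2:66440788-66441087.
Kcnn3: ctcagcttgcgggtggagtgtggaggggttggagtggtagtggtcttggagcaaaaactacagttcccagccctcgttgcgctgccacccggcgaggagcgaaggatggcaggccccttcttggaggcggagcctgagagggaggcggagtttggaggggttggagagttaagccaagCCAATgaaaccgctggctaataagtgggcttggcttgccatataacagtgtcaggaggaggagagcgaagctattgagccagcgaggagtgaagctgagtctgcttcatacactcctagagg
Kcnip3 first site: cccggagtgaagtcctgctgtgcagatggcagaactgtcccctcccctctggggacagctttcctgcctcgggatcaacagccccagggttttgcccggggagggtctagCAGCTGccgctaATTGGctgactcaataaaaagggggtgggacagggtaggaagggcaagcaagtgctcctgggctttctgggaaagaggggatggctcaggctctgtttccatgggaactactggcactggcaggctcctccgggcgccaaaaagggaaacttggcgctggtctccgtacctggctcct
Kcnip3 last site: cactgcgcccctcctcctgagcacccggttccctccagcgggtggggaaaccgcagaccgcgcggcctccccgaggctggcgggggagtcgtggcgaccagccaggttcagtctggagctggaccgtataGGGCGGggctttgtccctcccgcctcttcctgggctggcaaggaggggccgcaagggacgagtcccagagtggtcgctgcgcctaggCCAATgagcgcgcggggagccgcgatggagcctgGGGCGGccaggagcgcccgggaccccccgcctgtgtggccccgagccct
Scn1a: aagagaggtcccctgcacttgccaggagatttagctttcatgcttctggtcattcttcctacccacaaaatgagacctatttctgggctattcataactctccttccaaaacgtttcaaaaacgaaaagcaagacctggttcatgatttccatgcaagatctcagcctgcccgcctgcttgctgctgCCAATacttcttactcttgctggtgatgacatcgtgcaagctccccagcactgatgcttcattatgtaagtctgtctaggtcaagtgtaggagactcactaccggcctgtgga
Each of these 4 printed stretches held a CCAAT box, and the last Kcnip3 site held 2 GC boxes. The middle Kcnip3 site (chr2:127521343-127521642), which is not printed, held no CCAAT box and 1 GC box. Kcnj6, also lower in all 6 SMA libraries, was read at chr16:94997647-94997946 and chr16:94856641-94856940 and is not printed. Neither Kcnj6 stretch held a CCAAT box, so the printed stretches do not stand for all that were read. CCAAT boxes were in 30 of the 103 promoters of channel genes (29.1%) and in 37.4% of all 32851 promoters. GC boxes were in 43.7% of the channel gene promoters and 35.7% of all, E-boxes in 25.2% and 16.3%, and TATA boxes in 4.85% and 13.6%. These are matches of letters in a window, not shown to be binding sites.

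**Figure D2:**
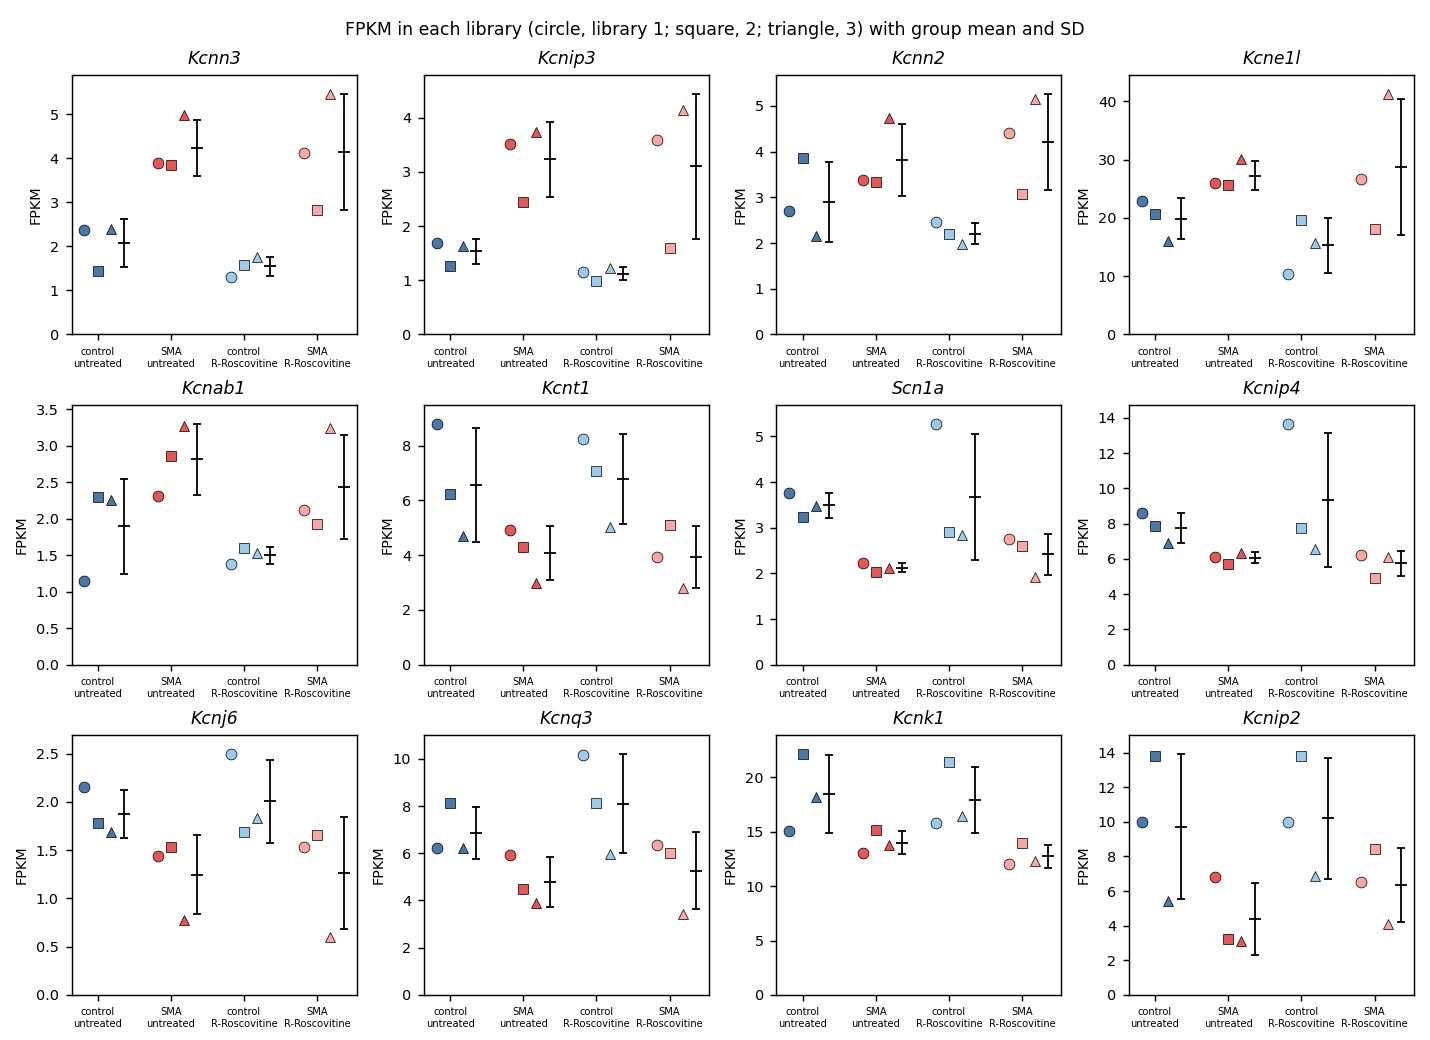
FPKM of 12 channel genes in each of the 12 libraries (circle, library 1; square, library 2; triangle, library 3), with the mean and SD of each group of 3 as a bar. All 6 SMA libraries lie above all 6 control libraries for Kcnn3, and below them for Scn1a, Kcnip4 and Kcnj6.

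Kcnn2, which encodes SK2, had higher estimates in SMA, as its paralog did, but did not pass. Control libraries held 2.70, 3.87 and 2.15 FPKM untreated and 2.45, 2.19 and 1.98 FPKM treated, and SMA libraries 3.37, 3.34 and 4.73 and 4.41, 3.07 and 5.15 FPKM. The genotypes overlapped without treatment through control library 2 and did not overlap with it. The averaged difference was 0.52 ± 0.15 (SE; limma, adjusted p = 0.0591). The other 6 tested members of the calcium- and sodium-activated group all had lower averaged estimates in SMA. Kcnmb4 changed sign, however, with -0.25 untreated and 0.23 with the compound, where 3 of 8 members of the group were higher. Kcnt1 had 8.79, 6.23 and 4.68 FPKM in untreated control and 4.92, 4.29 and 2.99 FPKM in untreated SMA libraries. In treated libraries it had 8.25, 7.06 and 5.02 against 3.93, 5.09 and 2.79 FPKM. The averaged difference of Kcnt1 was -0.59 ± 0.17 (SE; limma, adjusted p = 0.0674), with overlap in both treatments. Kcnma1 was close in both genotypes, with a difference of -0.08 ± 0.14 (SE) and a 95% interval of -0.38 to 0.21.

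Among the Kv auxiliary subunits the members parted. Kcne1l had 22.8, 20.7 and 16.1 FPKM in untreated control and 25.9, 25.7 and 30.1 FPKM in untreated SMA libraries, without overlap. In treated cultures Kcne1l lay at 10.4, 19.7 and 15.7 FPKM for control libraries 1 to 3 and at 26.7, 18.1 and 41.3 FPKM for SMA, where SMA library 2 lay below control library 2. Its averaged difference was 0.67 ± 0.19 (SE; limma, adjusted p = 0.0611). Kcnab1, a Kv beta subunit that speeds inactivation, went from 1.15, 2.29 and 2.25 to 2.31, 2.85 and 3.28 FPKM between untreated genotypes and from 1.37, 1.60 and 1.53 to 2.12, 1.93 and 3.25 FPKM between treated ones, without overlap in either (limma, averaged adjusted p = 0.0883). Kcnip4 and Kcnip2, like Kcnip3 partners of Kv4, had lower estimates in SMA. Kcnip4 had 8.59, 7.84 and 6.89 against 6.13, 5.71 and 6.32 FPKM untreated and 13.7, 7.73 and 6.59 against 6.21, 4.94 and 6.10 FPKM treated. All 6 SMA libraries were below all 6 controls, yet the averaged adjusted p was 0.119 by limma. Kcnip2 had the lowest averaged estimate of all members, -0.77 ± 0.25 (SE; limma, adjusted p = 0.0932), with 9.97, 13.8 and 5.43 against 6.80, 3.25 and 3.12 FPKM untreated and overlap between genotypes. Kcnip1 and Kcnab2 also had lower estimates (-0.35 and -0.24 in log2 units; limma, adjusted p = 0.247 and 0.253).

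The Kv7 and Kv10 to Kv12 pores were the one role in which every tested member, 8 of 8, had a lower averaged estimate, with a median of -0.22, and none passed. In each treatment alone 7 of 8 were lower. The exception was Kcnh7 without the compound, at 0.06, and Kcnh2 with it, at 0.16. Kcnq3 had 6.23, 8.13 and 6.21 FPKM in untreated control and 5.95, 4.5 and 3.88 FPKM in untreated SMA libraries. Treated libraries held 10.2, 8.15 and 5.99 against 6.37, 6.02 and 3.41 FPKM. The genotypes did not overlap without treatment and overlapped with it, and the averaged difference was -0.47 ± 0.17 (SE; limma, adjusted p = 0.112). Kcnh1 differed by -0.48 ± 0.16 (SE; limma, adjusted p = 0.108), and Kcnq5 by -0.26 ± 0.12. For Kcnh1, untreated control libraries held 2.18, 3.02 and 2.06 FPKM and SMA libraries 1.52, 1.62 and 0.836 FPKM, with SMA library 3 the lowest. Treated libraries of Kcnh1 held 2.75, 3.15 and 2.01 against 2.06, 2.28 and 0.917 FPKM, with overlap. Kcnh5, Kcnh7, Kcnh8 and Kcnh2 were between -0.18 and -0.06.

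Of the sodium channel pores, 4 of 5 were lower in SMA by estimate. Scn1a had 3.76, 3.23 and 3.48 FPKM in untreated control and 2.24, 2.02 and 2.12 FPKM in untreated SMA libraries. Treated libraries held 5.27, 2.90 and 2.84 against 2.75, 2.59 and 1.91 FPKM. All 6 SMA libraries lay below all 6 controls, and the averaged difference was -0.45 ± 0.13 (SE; limma, adjusted p = 0.07). Scn2a1 differed by -0.33 ± 0.18 (95% interval -0.71 to 0.05), Scn3a by -0.30 ± 0.17 and Scn8a by -0.21 ± 0.11. Among the beta subunits, Scn2b differed by -0.32 ± 0.13 on average, and for Scn3b the difference was 0.05 ± 0.10 with a 95% interval of -0.16 to 0.27.

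Of the 14 tested Kv1 to Kv4 pores, 11 had lower averaged estimates, with a median of -0.16. Kcnc2 (Kv3.2) had 1.74 ± 0.504 against 2.75 ± 0.440 FPKM without and 1.92 ± 0.546 against 3.19 ± 1.09 FPKM with the compound (SD, n = 3; limma, averaged adjusted p = 0.11). Kcnc1 differed by -0.02 ± 0.12 (95% interval -0.27 to 0.23). Kcnd3 and Kcnb2 had higher estimates in SMA, of 0.18 and 0.20. Kcnd1 (Kv4.1), Kcna1, Kcna4, Kcna6, Kcnc4, Kcnd2, Kcna2 and Kcna3 had lower ones, from -0.30 for Kcnd1 to -0.13 for Kcna3.

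Inward rectifiers and leak channels completed the set. Kcnj6 had 2.15, 1.78 and 1.68 against 1.44, 1.53 and 0.775 FPKM untreated and 2.49, 1.69 and 1.83 against 1.53, 1.66 and 0.597 FPKM treated, with no overlap between the 6 libraries of each genotype and the lowest values in SMA library 3 (limma, averaged adjusted p = 0.151). Its partner Kcnj3 differed by -0.38 ± 0.20 (SE) with overlap. Kcnk1 had 15.1, 22.1 and 18.2 against 13.1, 15.2 and 13.8 FPKM untreated, overlapping through control library 1 and SMA library 2, and 15.9, 21.4 and 16.5 against 12.0, 13.9 and 12.3 FPKM treated, without overlap. Its averaged difference was -0.38 ± 0.11 (SE; limma, adjusted p = 0.0743). Kcnk9 had 13.3, 7.01 and 8.56 against 4.46, 6.40 and 6.54 FPKM untreated, without overlap (limma, averaged adjusted p = 0.121). Treated libraries of Kcnk9 overlapped, at 13.5, 8.28 and 8.65 against 5.77, 9.47 and 7.71 FPKM. Kcnk3 differed by -0.29 ± 0.13. The TREK channels did not share this: Kcnk2 differed by 0.21 ± 0.12 and Kcnk10 by 0.06 ± 0.09, the latter with a 95% interval of -0.13 to 0.24.

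**Figure D3:**
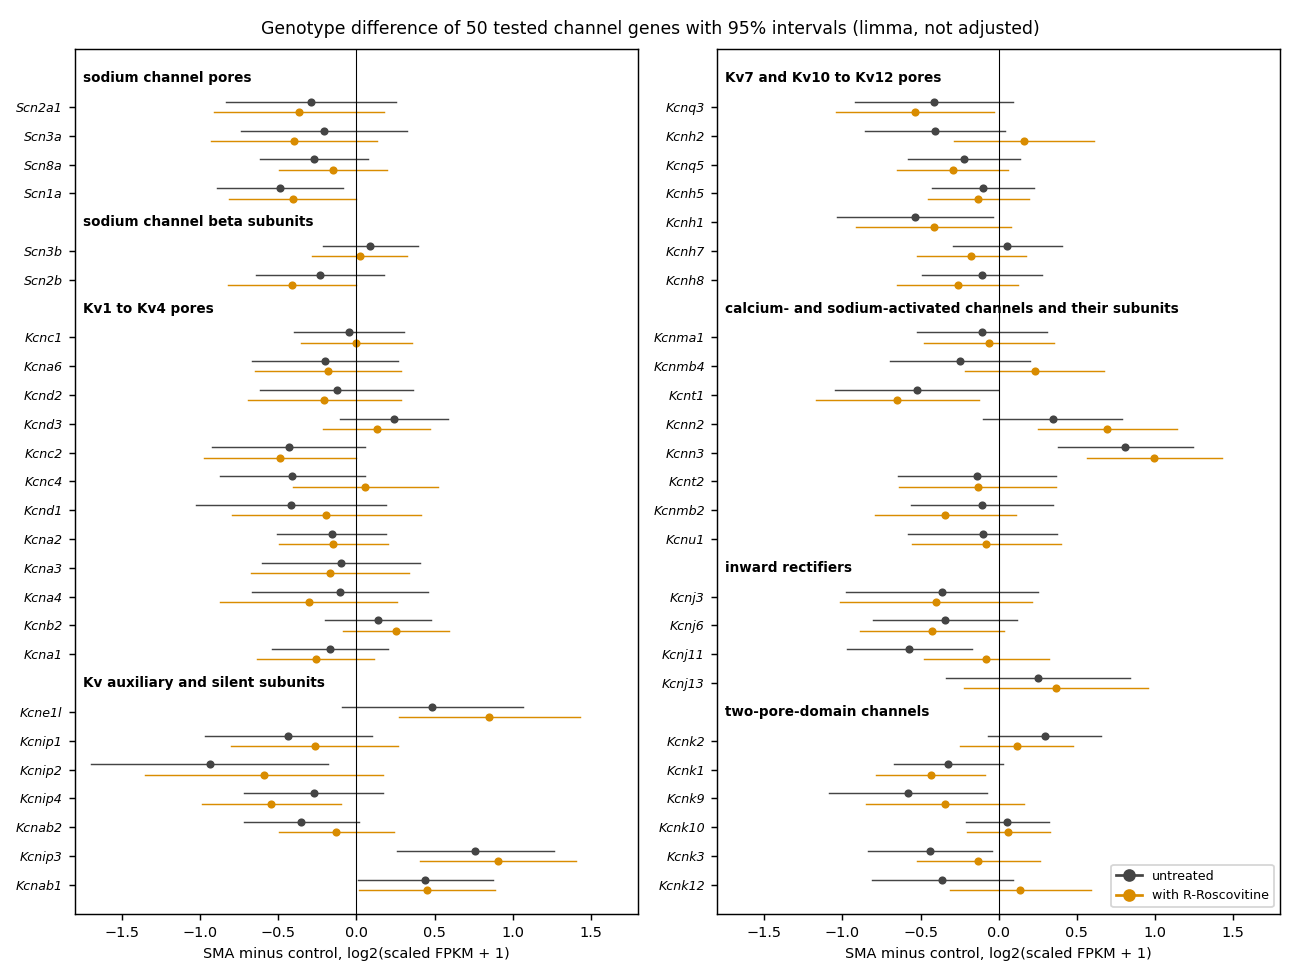
SMA minus control difference of 50 tested channel genes on the log2(scaled FPKM + 1) scale, untreated (dark) and with R-Roscovitine (orange), with unadjusted 95% intervals from limma. Kcnn3 and Kcnip3 lie to the right of 0 in both treatments and Scn1a, Kcnq3 and Kcnt1 to the left, and none passed in either treatment after adjustment.

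Beside the fits, the overlap of libraries was counted. Without treatment the 3 SMA libraries were all below the 3 control libraries in 13 of 55 members (23.6%), against 12.5% of all tested genes, and all above in 4 (7.27%), against 7.78%. With R-Roscovitine the counts were 6 lower (10.9%, against 8.86% of all genes) and 5 higher (9.09%, against 8.9%). In both treatments in the same direction they were 4 lower, among them Kcnip4, Kcnj6 and Scn1a (7.27%, against 2.86%), and 3 higher, namely Kcnab1, Kcnip3 and Kcnn3 (5.45%, against 2.47%). With all 6 libraries of each genotype, Kcnn3 was higher and Kcnip4, Kcnj6 and Scn1a lower, against 1.38% and 1.79% of all genes.

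Levels of cell type markers were set beside these differences. The summed FPKM of 11 astroglial markers (Kcnj10 left out; 9 tested) was 246 to 343 in untreated control and 452 to 1028 in untreated SMA libraries, and 275 to 332 and 313 to 838 with treatment. Within treated SMA libraries, Kcnn3, Kcnip3 and Kcne1l were lowest in library 2, which also had the lowest astroglial sum, and highest in library 3. The sum is mostly Fabp7, a marker of radial glia, which was highest in library 1 with 660 FPKM. Slc1a3, a glutamate transporter of astroglia, had 72.0, 60.4 and 104 FPKM in treated SMA libraries 1, 2 and 3. Mlc1 had 9.89, 4.10 and 11.8 FPKM and Sox9 20.5, 19.6 and 30.8 FPKM, all in the order of Kcnn3. Other tested astroglial markers did not keep that order. Aldoc (35.1, 7.14 and 28.8 FPKM) and Aldh1l1 (17.9, 8.23 and 12.3 FPKM) were highest in library 1. So were Gfap (2.77, 0.469 and 1.90 FPKM) and Aqp4 (3.00, 0.441 and 1.26 FPKM). Slc1a2 (16.7, 11.5 and 10.1 FPKM) was lowest in library 3. The 12 neural progenitor markers, whose sum is mostly Vim, summed to 3262 to 3571 FPKM in untreated control and 2312 to 3674 FPKM in untreated SMA libraries, and 2099 to 3394 against 2513 to 3588 FPKM with treatment. Of the 12, Sox1, Olig2, Nkx2-2 and Notch1 were higher in all 6 SMA than in all 6 control libraries. The same held for 4 of 12 astroglial markers, namely Slc1a3, Gfap, Sox9 and Kcnj10, the last of which is not in the sum. Lower in this sense were 0 astroglial markers. Without SMA library 2 in both treatments, the averaged comparison called Kcne1l, Kcnip3, Kcnn2 and Kcnn3, all higher. The share of all genes called in that setting is not given here. The defining astrocyte genes Gfap and Aqp4 did not exceed 3.25 and 4.11 FPKM, and in control libraries Gfap stayed at or under 0.297 FPKM. Oligodendrocyte markers (8, of which 4 tested) summed to 11.1 to 16.0 FPKM in untreated control and 18.9 to 61.2 FPKM in untreated SMA libraries. That sum was carried by Olig1, with 8.07, 3.97 and 5.35 against 49.1, 13.5 and 31.8 FPKM, while Mbp, the myelin basic protein, had 5.31, 4.10 and 2.57 against 2.60, 1.89 and 2.41 FPKM. The summed FPKM of 11 pan-neuronal markers was 874 to 1279 in untreated control and 730 to 858 in untreated SMA libraries, and 935 to 1376 against 849 to 1073 with treatment. Scn1a was highest in control library 1 of both treatments, which also had the highest pan-neuronal sum. Interneuron markers (10 found, 9 tested) summed to 182 to 307 FPKM in untreated control and 136 to 153 FPKM in untreated SMA libraries. With treatment these sums overlapped, at 205 to 316 FPKM in control and 144 to 213 FPKM in SMA libraries. Scn1a did not overlap in either treatment. Of the 10 interneuron markers found, 2, Slc6a5 and Slc17a6, were likewise lower in all 6 SMA than in all 6 control libraries, and 0 were higher. The part of these markers in the channel gene differences was not tested.

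**Figure D4:**
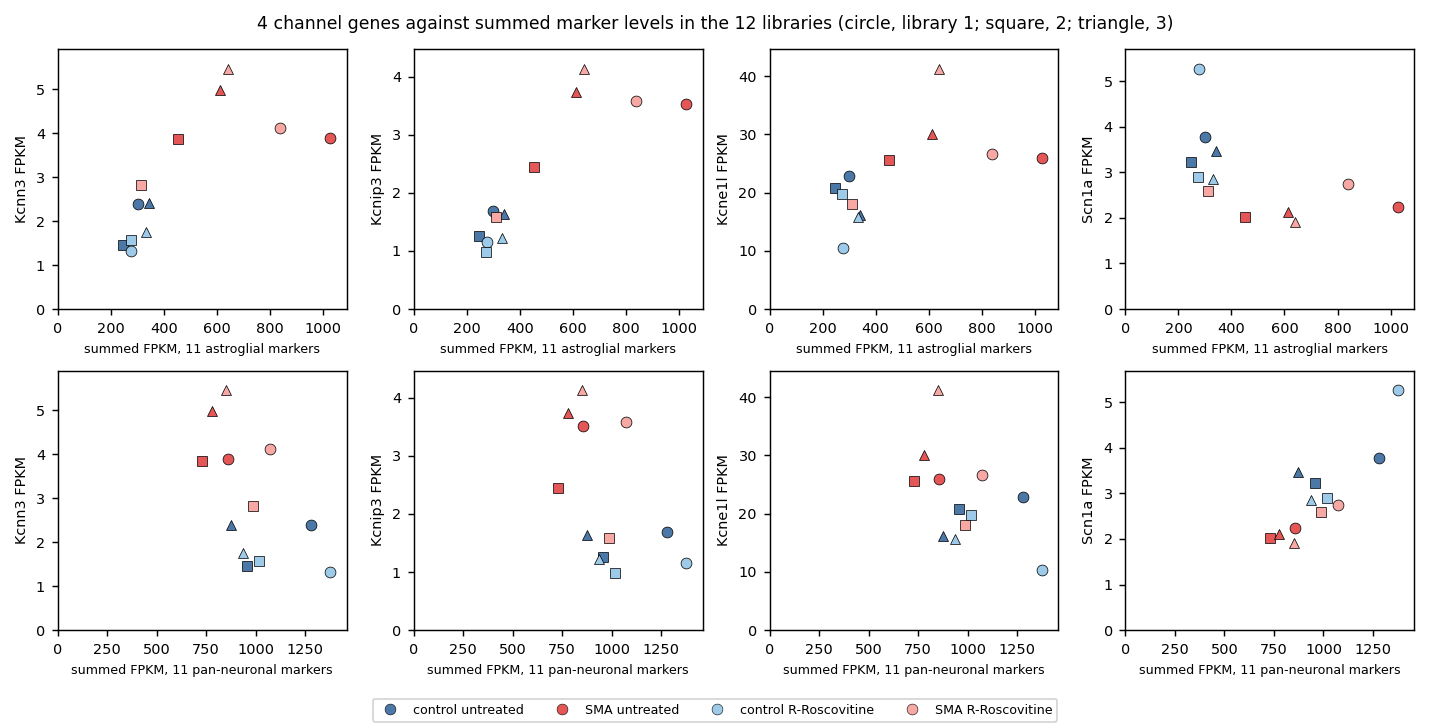
FPKM of Kcnn3, Kcnip3, Kcne1l and Scn1a against the summed FPKM of 11 astroglial (upper row) and 11 pan-neuronal markers (lower row) in the 12 libraries; colours give the groups and symbols the library number. The 6 control libraries, with astroglial sums of 246 to 343, hold the lowest values of Kcnn3, treated SMA library 2 lies among them for Kcnip3, and Scn1a is highest in the 2 control libraries numbered 1, whose pan-neuronal sums are the highest.

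Genes that hold or build these channels were taken from a list of 49 partners and anchors, of which 48 were in the tables and 43 were tested. In the averaged genotype comparison 38 of 43 had lower and 5 higher estimates in SMA (median -0.21), and 6 passed downward and none upward, where 1.8% of all genes passed downward. With pair means none of them passed. The 6, named because they passed, were Ank3, which anchors sodium and Kv7 channels at the axon initial segment, Fgf13, a cytoplasmic regulator of sodium channels, Lgi1, a secreted protein that acts on Kv1 channels, Lrrc55, a BK channel subunit, Cntn1, an adhesion molecule of the node, and Atp1b1, a sodium pump subunit. Ank3 had 69.9, 60.8 and 60.4 FPKM in untreated control and 45.4, 42.3 and 40.7 FPKM in untreated SMA libraries. With R-Roscovitine it had 99.6, 60.4 and 63.3 against 54.0, 60.1 and 39.9 FPKM. Lgi1 had 16.1, 19.5 and 12.6 against 7.69, 7.47 and 7.11 FPKM untreated and 25.8, 21.9 and 12.0 against 9.09, 13.0 and 5.66 FPKM treated, with control library 3 and SMA library 2 overlapping. In the other 6 comparisons none of the 43 passed.

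The next comparison asks whether R-Roscovitine changed the channel genes. None of the 55 passed in either genotype or on average, and over all 14981 genes 0% were called in either direction. At an unadjusted limma p under 0.05 there were 0 members in control cultures (1.25% of all genes), 2 in SMA (2.4%) and 1 on average (1.63%). Estimates leaned upward: 37 of 55 members (67.3%, against 50.8% of all genes) were higher with the compound in control, with a median difference of 0.08. In SMA cultures 41 of 55 (74.5%, against 50.5%) were higher, with a median of 0.11. On average 43 of 55 were higher (78.2%, against 51.8% of all genes), with a median of 0.11 against 0.00 for all genes. The members are not independent of each other, and the treated and untreated libraries of 1 number resembled each other. Taken pair by pair, the median difference over the 55 was 0.12, 0.05 and 0.05 in control pairs 1, 2 and 3, and 0.23, 0.20 and 0.02 in SMA pairs 1, 2 and 3, where all genes lay between -0.00 and 0.01. The pan-neuronal sum was also higher with the compound in 6 of 6 pairs. It went from 858 to 1073 FPKM in SMA pair 1, from 730 to 986 in SMA pair 2 and from 778 to 849 in SMA pair 3, and from 1279 to 1376, 957 to 1018 and 874 to 935 FPKM in control pairs 1, 2 and 3. Its part in the channel gene differences was not tested.

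**Figure D5:**
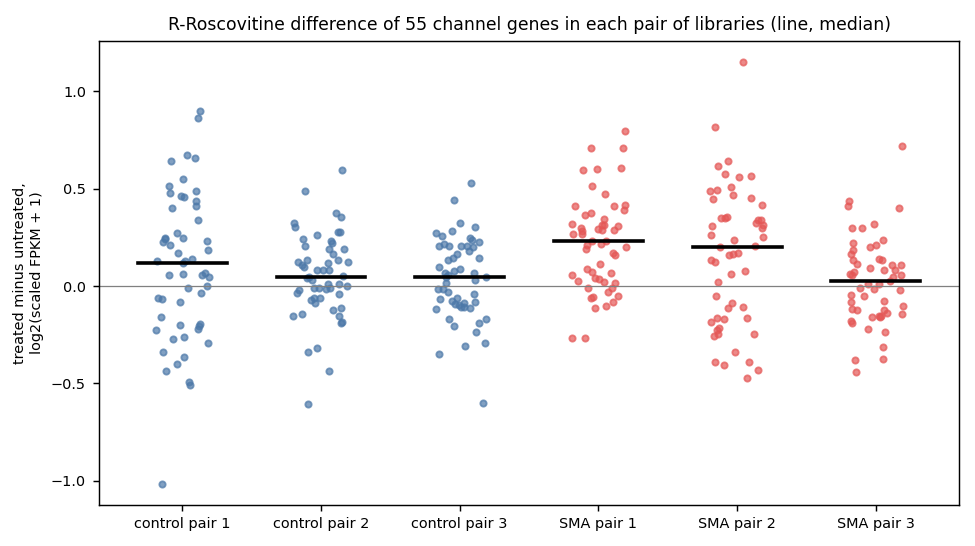
Treated minus untreated difference on the log2(scaled FPKM + 1) scale of the 55 channel genes in each of the 6 pairs of libraries with the same genotype and number; each point is 1 gene and the line the median. The medians lie between 0.02 and 0.23, highest in SMA pairs 1 and 2, with points on both sides of 0 in every pair.

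Scn8a was higher in treated libraries in 6 of 6 pairs, by 0.13 to 0.47 on the log2 scale. It went from 6.13, 4.79 and 4.30 to 7.19, 5.31 and 5.04 FPKM in control and from 4.27, 3.46 and 3.93 to 5.42, 5.14 and 4.64 FPKM in SMA cultures, where the groups did not overlap. Its averaged difference was 0.25 ± 0.11 (SE), with the lowest unadjusted p of the members and an adjusted p of 1 by limma. Kcnip1, Kcnj3 and Kcnk9 were also higher in 6 of 6 pairs, so that 4 of 55 members (7.27%) did so, against 2.52% of all genes. Kcnk10 was lower in 6 of 6 pairs, by 0.06 to 0.19, where 1.98% of all genes were. In SMA cultures treated and untreated libraries did not overlap in 6 members, all higher with the compound (10.9%, against 6.17%). Among them were Kcnab2, Kcnh2, Kcnj11 and Scn8a. In control cultures none was higher without overlap (against 1.48%), and Kcnip3 and Kcnk10 were lower (3.64%, against 3.04%). By estimate, Kcnip1 and Kcna6 were highest of the members on average, at 0.32 ± 0.17 and 0.32 ± 0.15 (SE; limma, adjusted p = 1 for both). Kcnj3 had 0.30 ± 0.20 and Kcnip2 0.29 ± 0.25, and Kcne1l was lowest at -0.18 ± 0.19 (SE).

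The last comparison asks whether the response differed between the genotypes. No member and no other gene passed the interaction test in limma (0% of all genes; unadjusted p under 0.05 in 0 of 55 members and 1.91% of all genes). A larger treatment estimate in SMA was found in 32 of 55 members (58.2%, against 51.5% of all genes), with a median interaction of 0.02 against 0.01. Kcnh2, Kcnk12 and Kcnj11 were among the members with the highest interaction estimates. Kcnh2, the ERG1 channel, had 8.85, 4.48 and 4.14 FPKM in untreated and 6.06, 5.54 and 4.57 FPKM in treated control libraries. In SMA libraries it went from 3.72, 4.08 and 3.58 to 6.18, 5.41 and 6.58 FPKM, so that it was lower than control without the compound and overlapped control with it. Its treatment difference was 0.56 ± 0.21 in SMA and -0.01 ± 0.21 in control cultures (SE), and the interaction 0.57 ± 0.29 (SE; limma, adjusted p = 1). Kcnj11 went from 0.811, 0.603 and 0.974 to 1.12, 1.38 and 1.18 FPKM in SMA, with an interaction of 0.49 ± 0.26 (SE). In control pairs Kcnh2 was lower with the compound in pair 1 and higher in pairs 2 and 3. Kcnk12, a K2P channel, had an interaction estimate of 0.50, and Kcnmb4 and Kcnc4 had 0.48 and 0.47. The interaction test called none of these differences between genotypes.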

How the data were processed

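RNA of 12 primary motoneuron culture libraries was sequenced after preparation with a Lexogen mRNA-Seq kit, per the labels' protocols. The authors deposited, for each library, 1 table of FPKM values per gene with the bounds of its interval; per the submitters' processing notes, the tools used included Trim Galore 0.4.0, FastQC 0.10.1 and Cufflinks 2.2.1, with GRCm38 as the build. How reads were aligned, and whether strand was used, is not given in the sources used here, so reads of overlapping and antisense genes could not be told apart. The channel genes, the role groups, the partner list and the marker lists were chosen with earlier results of these data known.

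Lines of 1 gene identifier were summed. Genes of small RNA biotypes (133) were left out, and 14981 genes with at least 1 FPKM in at least 3 libraries were kept. Libraries were scaled by the median ratio to the geometric mean (factors 0.972 to 1.041), log2(scaled FPKM + 1) was taken, and limma 3.58.1 in R 4.3.3 fitted the 4 group means over all 12 libraries, with Benjamini-Hochberg adjustment over all 14981 genes and a threshold of 0.05. FPKM are not counts: 36.8% to 39.7% of low values came out as whole reads (within 0.01 read), too few to recover counts, so no count model was run, and the read depth of 19.5 to 28.7 M reads is an estimate from the same steps. Replicate numbers were checked for pairing: deviations of treated and untreated libraries of the same genotype and number correlated at 0.237 to 0.596 over genes, every one of 6 above 0.1, while libraries of different genotypes with the same number correlated at -0.0566 to 0.305. Treated and untreated libraries of a number were thus taken as pairs within a genotype in the pair by pair values and in alternatives. The main fit held no pair term and counted all 12 libraries as independent, so its p-values leave the pairing out. The fit was tested on simulated data in which all libraries were drawn independently. That test therefore does not bear on the effect of the pairing. Members were named if they passed in a comparison, were among the 3 with the lowest unadjusted p in either direction, were among the 3 highest by level in their role, did not overlap between genotypes in the same direction in both treatments, or stood in a list of the best-known channel genes. Other tested members named (Kcna3, Kcna4, Kcnd1, Kcnh5, Kcnh8, Kcnj13, Kcnk12, Kcnu1) were added after their values were seen, and untested ones are named by level only. Some members enter the counts but are not reported individually here. Alternatives were other scalings, pseudocounts and filters, library weights, replicate blocks, pair means and leaving out libraries. Gene promoters came from RefSeq on GRCm38.p6.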

Additional observations from a re-analysis of the deposited data

How the results depend on the processing

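Of 55 tested members, 2 passed in the genotype comparison averaged over treatments. In the main fit 3.03% of all genes were called higher and 1.8% lower there. The members' count was 6 with libraries rescaled to a common sum, 12 with library weights and 0 without a filter on low values. The shares of all genes called under the alternatives are not given beside these and the following counts. A larger count is therefore not a result about channel genes in particular. The replicate block was run in several forms. A block on the number alone, which joins control and SMA libraries that share only a number, gave 14 members there, 2 in the untreated and 3 in the treated genotype comparison. With the pairs as a random term the averaged count was 1, and with pair means it was 0. Leaving out 1 library, or 1 number of a genotype in both treatments, gave 0 to 5 members on average, 0 to 1 untreated and 0 to 3 treated. The averaged count was 0 without untreated SMA library 3 or treated SMA library 1, and without control library 2, SMA library 1 or SMA library 3 in both treatments. It was 1 without untreated control library 2, untreated SMA library 1, treated control library 1, treated SMA library 3, or control library 1 in both treatments. It was 5 without treated SMA library 2, and 4 without SMA library 2 or control library 3 in both treatments. Without SMA library 2 and control library 1 in both treatments, an alternative chosen after seeing the data, the counts were 5 on average, 1 untreated and 2 treated. Library weights gave 3 members in the untreated comparison. In the treatment and interaction comparisons the count was 0 under every alternative run, fixed pairs as a replicate block included.

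No called difference was reversed under any alternative. The median genotype difference was negative under every alternative, and without a filter, with members at or near 0 included, it shrank to -0.07 untreated, -0.02 treated and -0.04 on average. The interaction median ran from -0.08 to 0.12. Low levels, 3 libraries per group and FPKM without counts limit what could be detected: a missed threshold does not show that a gene was alike in the groups.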
